A study of Mus musculus with 40 samples.

Results

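The comparison was between isolated colonic epithelial cells and total colonic tissue of mice that received no inoculum. It used the 20 control libraries of the 40 in the series, 10 of each preparation, chosen by their labels alone. The remaining 20 libraries came from mice given T.mu, the gut protozoan Tritrichomonas musculis, and entered only where stated. Each preparation had 3 libraries at day 3, 3 at day 14 and 4 at day 48, counted from the inoculation of the T.mu groups, and each library carried a litter number from 1 to 4. RNA was purified with phenol and chloroform and read by 3′ digital gene expression, which counts the ends of transcripts. Mouse strain, sex and age, the way the epithelial cells were detached, the stretch of colon taken and whether both preparations of a litter came from 1 animal are not given in the labels. The series design names 3 mice per group while 4 control libraries of each preparation are labelled day 48, so the p-values below measure the spread between these libraries, which may in part be technical. All 45792 mouse gene rows were examined, and 11177 genes passed the filter on low counts and were tested.

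The colon is lined by a single sheet of epithelium folded into crypts. Stem cells at the crypt base feed a zone of dividing progenitors, whose daughters become absorptive colonocytes, mucus-secreting goblet cells, hormone-secreting enteroendocrine cells and chemosensory tuft cells as they move up to the surface and are shed. Beneath lie the lamina propria, with fibroblasts, vessels, macrophages and antibody-secreting plasma cells, the muscle layers with the enteric nervous system, and the serosa with its mesothelium and attached fat. Total tissue, by its name, holds every one of these layers, epithelium included. Whether its epithelium matched the isolated cells in stretch of colon or make-up is not given in the labels and was not tested. In CPM, defined below, tissue held more Epcam, an epithelial gene, at 2569 to 3486 against 758 to 1015 in the epithelial preparation. Yet it held almost no Insl5, a gene of enteroendocrine cells, at 0 to 1.35 against 75.3 to 180.1.

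Library depth and make-up differed between the preparations. Totals ran from 170291 to 1765601 counts in epithelium and from 220717 to 6756616 in tissue, with an exact two-sided permutation p of 0.00307 over the 28000 splits within days (adjusted p = 0.00384 over 5 library values). The share of counts in ribosomal RNA genes and Lars2, a gene that overlaps them in sequence, was 33.5% to 44.4% for epithelium and 14.6% to 28.6% for tissue (exact permutation p = 7.14e-05, the smallest these splits can give; adjusted p = 0.000179). Genes of the mitochondrial genome other than its ribosomal RNA genes, tRNA genes among them, were set against the counts without ribosomal RNA genes and Lars2. Their share was 7.05% to 12.7% in epithelium and 4.37% to 6.00% in tissue, without overlap. Drawn down to 170291 counts, the epithelial libraries held 9377 to 13481 genes and the tissue libraries 9213 to 11505 (exact permutation p = 0.0231, adjusted p = 0.0231, and unadjusted p = 0.109 when drawn down to 100000 counts). Epithelial replicates 1 and 3 of day 3 and tissue replicates 1 and 2 of day 14 had fewer than 400000 counts. Tissue libraries of day 48 stood apart in their make-up. Replicate 4 held 7131 CPM of the Paneth and small intestine list and replicate 2 held 1964, where the other tissue libraries held 270.0 to 557 and the epithelial ones 155 to 237. Of the 11 tested genes of this list 9 were lower in epithelium, and 6 were lower and 1 higher without tissue replicate 4 of day 48. The same replicate 4 held 1329 CPM of the MHC class II list, against at most 258 in the others, and replicates 2 and 4 held 3756 and 2230.1 CPM of the adipocyte list, against at most 1050.0.

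Levels are given as CPM, mouse counts scaled to 1000000 per library after TMM scaling, and differences as log2 of epithelium over tissue with day as a covariate, ± the standard error. A gene is called when its adjusted p in edgeR's quasi-likelihood test is below 0.05. Of the 11177 genes tested, 2871 (25.7%) were higher and 3405 (30.5%) lower in epithelium, 56.2% in all. At least a 4-fold difference was seen for 582 of the higher genes (5.21% of those tested) and for 690 of the lower ones (6.17%). The 10 epithelial libraries lay wholly above the 10 tissue libraries for 507 genes (4.54%) and wholly below for 1009 (9.03%). The direction was the same on all 3 days for 5899 of the 6276 called genes (94.0%). How many genes are counted as higher depends on the scaling, because it sets the zero. The median log2 difference over all genes was -0.04 with TMM scaling, 0.12 with RLE scaling, 0.16 with upper quartile scaling and 0.19 when the ribosomal RNA genes and Lars2 were left out. Under these 3 alternatives 54.5%, 56.8% and 58.1% of the called genes were higher, against 45.7% with TMM. Differences below about this shift in size are therefore given by value only, and the lists are described with the shift in view.

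Genes of the muscle coat were far lower in epithelium. Of 28 listed smooth muscle genes 27 were tested, and 25 were lower and none higher, with a median log2 difference of -4.58. In 21 of them every epithelial library lay below every tissue library, and over all genes 30.5% were lower and 9.03% lay apart in this direction. Summed over all 28, the list held a median of 269 CPM in epithelium and 8459.9 in tissue, a 31.4-fold difference of the medians. Acta2, the smooth muscle actin, held 0 to 15.6 CPM in epithelium (median 2.63) and 638 to 1317 CPM in tissue (median 1064). It was 316-fold lower in epithelium (log2 difference -8.30 ± 0.37, adjusted p = 6.33e-14), and no epithelial library came near the lowest tissue library. Actg2, the enteric form of smooth muscle actin, held 0 to 7.67 CPM in epithelium (median 0.788) and 461 to 1116 CPM in tissue (median 821), which is 489-fold lower (log2 difference -8.93 ± 0.31, adjusted p = 3.74e-23; 769.9-fold without epithelial replicate 1 of day 14). Myl9, the regulatory light chain of smooth muscle myosin, held 0 to 10.4 CPM in epithelium (median 0) and 422 to 931 CPM in tissue (median 644). The groups again lay far apart, with Myl9 455-fold lower (log2 difference -8.83 ± 0.27, adjusted p = 3.97e-34). Tpm1, a tropomyosin that epithelial cells also use, differed least among the 4 most counted members, 9.65-fold (log2 difference -3.27 ± 0.14, adjusted p = 1.27e-29). Myocd, the coactivator myocardin of smooth muscle genes, was not called, at a log2 difference of -0.58 ± 0.46. As in every bulk comparison of this kind, fewer cells of a type and less RNA per cell cannot be told apart. A listed gene that passed the count filter only through the preparation where it is high had to differ, so the counts of members describe the lists and are not a test of them.

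The promoters of Acta2 and Myl9 are shown because both genes are far lower in epithelium and each holds the CArG box, the element bound by serum response factor and its partner myocardin. The windows are the 200 bases before the annotated start in RefSeq (GRCm38.p6), written 5′ to 3′ on the strand of the gene, at chr19:34255374-34255573 on the minus strand for Acta2 and chr2:156775264-156775463 on the plus strand for Myl9. Capitals mark CArG boxes, searched on the 250 bases before each start with at most 1 G or C allowed in the A and T centre, a pattern that reads the same on both strands. They begin at positions -84 and -34 in Acta2 and at -161 and -99 in Myl9. Of the 22 smooth muscle genes with a window, 6 (27.3%) held such a match, against 2643 of all 27025 genes with one (9.78%). With no G or C allowed, the match was found in 2 of 22 (9.09%) and in 1.62% of all genes. A match is a run of letters and not a measured binding site.
Acta2: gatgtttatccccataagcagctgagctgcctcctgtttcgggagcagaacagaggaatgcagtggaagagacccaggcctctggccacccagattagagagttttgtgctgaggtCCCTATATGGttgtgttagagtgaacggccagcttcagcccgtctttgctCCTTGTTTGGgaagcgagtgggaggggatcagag
Myl9: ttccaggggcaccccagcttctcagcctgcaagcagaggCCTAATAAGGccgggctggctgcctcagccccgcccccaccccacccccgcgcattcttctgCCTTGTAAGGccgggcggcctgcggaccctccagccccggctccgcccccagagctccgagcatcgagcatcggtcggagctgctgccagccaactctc

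Connective tissue genes behaved alike. Of 34 listed fibroblast and matrix genes 32 were tested, and 31 were lower and none higher (median -3.62). Dcn, the proteoglycan decorin that decorates collagen fibrils, held 0 to 7.28 CPM in epithelium (median 4.32) and 238 to 659 CPM in tissue (median 457), with every epithelial library below every tissue library. Col3a1, a fibrillar collagen of the gut wall, held 0 to 15.3 CPM in epithelium (median 4.32) and 183 to 382 CPM in tissue (median 275). It was 46.7-fold lower (log2 difference -5.54 ± 0.23, adjusted p = 1.09e-28), and the groups did not overlap. Dpt, the matrix protein dermatopontin, differed most among the 4 most counted members, 410.3-fold (log2 difference -8.68 ± 0.34, adjusted p = 7.68e-25; 1048-fold without epithelial replicate 1 of day 14). Gsn, the actin-severing protein gelsolin that epithelia also make, was 2.89-fold lower (log2 difference -1.53 ± 0.14, adjusted p = 2.45e-14). Col1a1, the main collagen of scar and stroma, held 0 to 5.60 CPM in epithelium (median 0) and 16.4 to 93.8 CPM in tissue (median 65) and was 33.3-fold lower (log2 difference -5.06 ± 0.33, adjusted p = 8.32e-21). The collagens, a family looked at after the values were seen, did not all go this way. Among 22 tested of 44, 13 were lower and 6 higher, against 30.5% and 25.7% of all genes. The higher ones were Col22a1, Col25a1, Col27a1, Col4a4, Col6a5 and Col8a1. None of these lay without overlap between the preparations, while 8 of the lower ones did. The most counted of the higher ones was Col8a1, at 10.4 to 47.3 CPM in epithelium (median 30.4) and 3.13 to 14.7 CPM in tissue (median 6.99) (log2 difference 2.10 ± 0.27, adjusted p = 7.17e-10).

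Vessels, nerves, fat and serosa were lower in epithelium as well, to unequal degrees. All 5 called pericyte genes of 6 tested were lower, led by Rgs5, a regulator of G protein signalling in vessel walls, at 0 to 3.73 CPM in epithelium (median 2.53) and 149 to 364 CPM in tissue (median 293). Rgs5 was 123-fold lower (log2 difference -6.95 ± 0.24, adjusted p = 2.8e-35), without overlap. Endothelial genes were called in both directions, 8 lower and 2 higher of 14 tested, against 30.5% and 25.7% of all genes. Lyve1 and Pdpn, which mark lymphatic vessels, were 11.2-fold and 24-fold lower (adjusted p = 3.09e-12 and 2.24e-13; Pdpn 40.3-fold without epithelial replicate 4 of day 48). Pecam1, an adhesion molecule of all endothelium, held 0 to 7.67 CPM in epithelium (median 1.64) and 0 to 24.7 CPM in tissue (median 10.6) and was 3.56-fold lower (log2 difference -1.83 ± 0.47, adjusted p = 0.000727), with overlapping groups. Emcn and Vwf, also endothelial, were the exceptions at log2 differences of 1.74 ± 0.37 and 1.20 ± 0.49. The call of Vwf ended with a block for day and litter (adjusted p = 0.099) and without any 1 of epithelial replicates 1 and 2 of day 3 and 2 and 4 of day 48 and tissue replicates 3 and 4 of day 48 (adjusted p = 0.0647 to 0.105). Among 12 tested genes of enteric neurons 9 were lower and Map2 alone was higher (1.61 ± 0.50). Penk, the enkephalin precursor, was 25.1-fold lower (log2 difference -4.65 ± 0.57, adjusted p = 1.9e-10), and 207-fold without epithelial replicate 1 of day 48. The transmitter gene Vip had 3 counts in all epithelial libraries together and 392 in tissue, a 37.8-fold ratio with a counting interval of 12.8 to 184, which takes each count as 1 fragment and is too narrow if fragments were counted more than once. The fitted log2 difference, which depends on the prior count at so few counts, was -4.87, and -5.79 without epithelial replicate 3 of day 48. Elavl4, a neuronal RNA-binding protein, had too few counts to be tested (37 in epithelium and 115 in tissue). Fat showed the same pattern, with 11 of 12 tested adipocyte genes lower and Rbp4, the retinol carrier, higher (0.87 ± 0.32, a call that ended without day 14 at adjusted p = 0.338). Adipoq, the fat hormone adiponectin, held 0 to 3.64 CPM in epithelium (median 0) and 0 to 236 CPM in tissue (median 20.3) and was 63.8-fold lower (log2 difference -6.00 ± 0.88, adjusted p = 1.59e-05; 39.4 to 40.9-fold without epithelial replicate 1 or 3 or tissue replicate 2 of day 48). The mesothelial gene Upk3b had 0 counts in epithelium and 591 in tissue, at least 57.1-fold lower against a floor of 3 counts over the group.

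**Figure D1:**
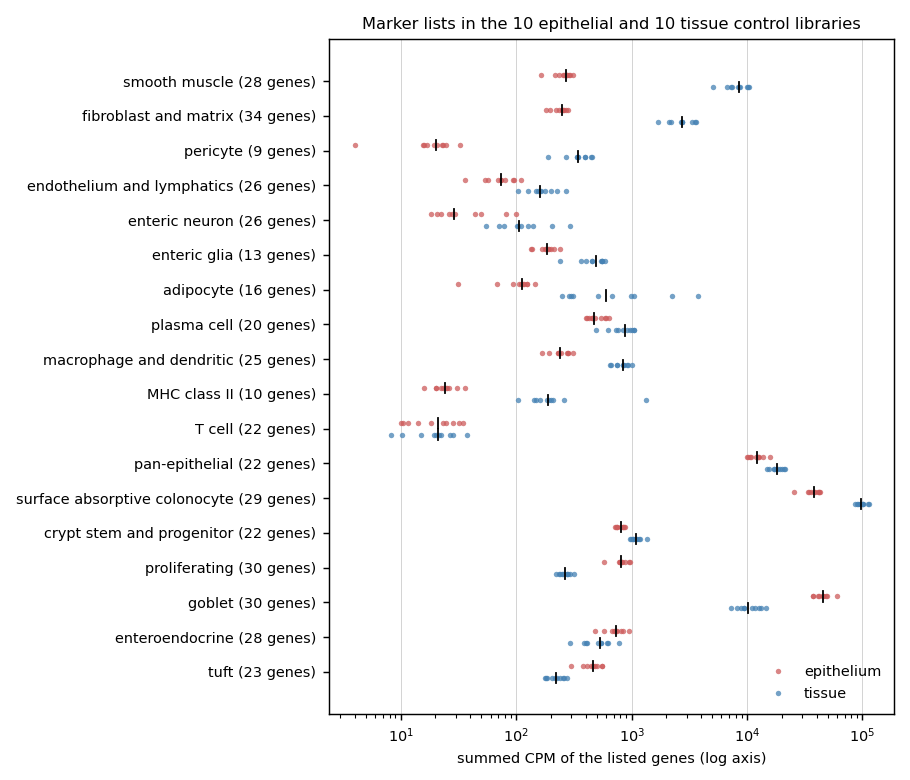
Summed CPM of each marker list (log axis) in each of the 10 epithelial (red) and 10 tissue (blue) control libraries, with black bars at the medians; the number beside each name is the listed genes found in the table. Smooth muscle shows the widest gap, with medians of 269 CPM in epithelium and 8459.9 in tissue, while goblet and proliferating lists lie the other way.

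Immune genes gave no single picture. The T cell list could hardly be read in either preparation. Its 22 genes summed to a median of 20.8 CPM in epithelium and 20.9 in tissue, and 1 of them was tested. Cd3e, a chain of the T cell receptor complex, had 7 counts in epithelium and 19 in tissue. Gzma, a protease of cytotoxic lymphocytes, had 3 and 179 counts, those of epithelium all in replicate 2 of day 48. The ratio of the 2 sums was 17.3, with a counting interval of 5.82 to 84.6, and the fitted log2 difference of -4.11 was -3.32 without tissue replicate 4 of day 48. Ptprc, the CD45 antigen of all white blood cells, held 3.64 to 26 CPM in epithelium (median 13.9) and 8.18 to 33.7 CPM in tissue (median 11.6). The groups overlapped throughout and Ptprc was not called (log2 difference 0.07 ± 0.29, adjusted p = 0.862). Macrophage and plasma cell genes differed far more. Of 15 tested macrophage and dendritic genes 11 were lower, against 30.5% of all genes, and Cd14, the endotoxin co-receptor, was higher (0.73 ± 0.27). The call of Cd14 ended without epithelial replicate 2 of day 3 (adjusted p = 0.0849) or tissue replicate 1 of day 14 (adjusted p = 0.0577). Lyz2, the lysozyme of macrophages, held 0 to 7.67 CPM in epithelium (median 1.94) and 45.6 to 108 CPM in tissue (median 74.2), and Ctss, a lysosomal protease, held 114 to 249 CPM in epithelium (median 183) and 383 to 573 CPM in tissue (median 426), so that the fold differences were unequal, 26.5 and 2.37. All 5 tested MHC class II genes of antigen presentation were lower. H2-Ab1, a class II chain, held 0 to 12.8 CPM in epithelium (median 6.96) and 34.1 to 475 CPM in tissue (median 62.8), and Cd74, its invariant chain, was 18.5-fold lower (log2 difference -4.21 ± 0.76, adjusted p = 0.000159). Without tissue replicate 4 of day 48 they were 8.46-fold and 10.1-fold lower, against 15.4-fold and 18.5-fold with it. In both, every tissue library exceeded every epithelial one. Among 9 tested plasma cell genes 4 antibody chain genes and Jchain, which joins antibody chains, were lower with Sdc1 and Prdm1 (log2 difference -5.18 ± 0.25, adjusted p = 2.96e-27 for Jchain). The call of Sdc1, which colonocytes also express, ended with the length and GC correction (adjusted p = 0.173). Antibody genes are close copies of one another, so how their reads were divided is uncertain. Igha, the IgA heavy chain, held 0 to 20.8 CPM in epithelium (median 5.99) and 63 to 269.6 CPM in tissue (median 189.6). Xbp1 and Txndc5, which serve secretion in plasma cells and goblet cells alike, were higher, by 1.16 ± 0.15 and 2.11 ± 0.17. The neutrophil list, of which 2 of 16 genes were tested, ran against its name. Ly6g and Cd177 held 10.4 to 106 CPM in epithelium (median 60.3) and 0 to 1.12 CPM in tissue (median 0) and 49.7 to 134 CPM in epithelium (median 82.5) and 0 to 16.4 CPM in tissue (median 6.13), respectively, while Elane and S100a9, which define neutrophils, had 0 counts in both preparations and S100a8 had 5 in epithelium and 0 in tissue. Reads of Ly6g may be shared with related Ly6 genes, and how the authors' counting treated them is not given in the sources used here.

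The epithelial lists did not rise as a block in the epithelial preparation. Of 22 general epithelial genes, all tested, 13 were lower and 4 higher, against 30.5% and 25.7% of all genes (median -0.40). Under the 3 other scalings and the length and GC correction 9 to 11 were lower and 6 higher. Epcam, the adhesion molecule on every gut epithelial cell, held 758 to 1015 CPM in epithelium (median 959) and 2569 to 3486 CPM in tissue (median 2941). The groups did not overlap, and Epcam was 3.19-fold lower in the epithelial preparation (log2 difference -1.67 ± 0.12, adjusted p = 5.75e-20). Cldn7, a claudin of the lateral membrane, was 3.64-fold lower (log2 difference -1.87 ± 0.15, adjusted p = 3.08e-17), without overlap. In contrast Cdx1, a hindgut transcription factor, held 57.5 to 197 CPM in epithelium (median 97.3) and 5.62 to 36.8 CPM in tissue (median 24.7) and was 3.95-fold higher (log2 difference 1.98 ± 0.19, adjusted p = 3.59e-14), while its relative Cdx2 was 3.74-fold lower (log2 difference -1.90 ± 0.21, adjusted p = 2.14e-11). Fxyd3, a regulator of the sodium pump, was the most increased member, 16.2-fold (log2 difference 4.02 ± 0.21, adjusted p = 2.04e-24).

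Genes of the mature surface cell were the lower ones. Among 28 tested surface colonocyte genes of 30 listed, 22 were lower and 4 higher (median -1.31). Krt20, the keratin of differentiated colonocytes, held 74.5 to 289 CPM in epithelium (median 217) and 1765 to 2602 CPM in tissue (median 2154), a gap of 11.5-fold. Cyp2c55, a colonic cytochrome P450, held 2035 to 3189 CPM in epithelium (median 2791) and 10919.5 to 16053 CPM in tissue (median 13615), with the groups apart (log2 difference -2.30 ± 0.12, adjusted p = 7.05e-26). Aqp8, the water channel of surface cells, was 5.40-fold lower (log2 difference -2.43 ± 0.20, adjusted p = 1.11e-11), and Ceacam1, a surface glycoprotein, 3.20-fold (log2 difference -1.68 ± 0.11, adjusted p = 2.65e-20). Genes of the microvilli that cover the surface cell were lower too. All 16 tested brush border genes were lower, 13 of them without overlap between the preparations (median -1.55), against 30.5% and 9.03% of all genes. Cdhr5 and Cdhr2 are the cadherins that tie microvillus tips together. Cdhr5 held 186 to 491 CPM in epithelium (median 323) and 1125 to 1787 CPM in tissue (median 1372) and was 4.22-fold lower (log2 difference -2.08 ± 0.13, adjusted p = 6.66e-22), and Cdhr2 was 3.23-fold lower (log2 difference -1.69 ± 0.14, adjusted p = 3.67e-17). Vil1, the actin bundler villin, was 2.81-fold lower (log2 difference -1.49 ± 0.14, adjusted p = 1.3e-14). Hsd11b2, Guca2b and Scnn1b were exceptions within the surface list. Hsd11b2, which inactivates glucocorticoid so that aldosterone can act, held 211 to 462 CPM in epithelium (median 359) and 24.5 to 92.6 CPM in tissue (median 60.5) and was 5.45-fold higher (log2 difference 2.45 ± 0.15, adjusted p = 9.75e-23). Scnn1b, a subunit of the aldosterone-regulated sodium channel, was 3.14-fold higher (log2 difference 1.65 ± 0.53, adjusted p = 0.0067) and Guca2b, the peptide uroguanylin, 2.20-fold (log2 difference 1.14 ± 0.25, adjusted p = 0.000304).

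Genes of the crypt base lay on the other side. Of 18 tested stem and progenitor genes, 13 were higher and 2 lower (median 1.18). Lgr5, the receptor that marks crypt base stem cells, held 6.53 to 34.2 CPM in epithelium (median 16) and 0 to 4.44 CPM in tissue (median 1.52). It was 8.73-fold higher in epithelium (log2 difference 3.13 ± 0.41, adjusted p = 1.25e-09), and its lowest epithelial library exceeded its highest tissue library. Slc12a2, the chloride uptake transporter of crypt cells, held 139.9 to 243 CPM in epithelium (median 181) and 31.4 to 69.8 CPM in tissue (median 42.9) and was 4.19-fold higher (log2 difference 2.07 ± 0.15, adjusted p = 2.4e-19). Sox9, a transcription factor of progenitors, was 4.71-fold higher (log2 difference 2.24 ± 0.19, adjusted p = 7.77e-16) with overlapping groups. The lower members were Prom1, a membrane protein of apical protrusions, and Tgfbi, an adhesion protein induced by TGF-beta (-1.99 ± 0.12 and -3.67 ± 0.28). Summed CPM of the list nevertheless was lower in epithelium, with medians of 807 and 1086. Prom1 alone held 168 to 241 CPM in epithelium (median 209) and 713 to 1114 CPM in tissue (median 833). Genes of cell division were higher too. Among 28 tested proliferation genes 25 were higher and none lower (median 1.72), against 25.7% of all genes. Mki67, the antigen Ki-67 of cycling cells, held 42.9 to 73.9 CPM in epithelium (median 57) and 10.4 to 33.7 CPM in tissue (median 14.1) and was 4.00-fold higher (log2 difference 2.00 ± 0.20, adjusted p = 1.68e-13). Top2a, the topoisomerase of dividing cells, was 3.61-fold higher (log2 difference 1.85 ± 0.18, adjusted p = 2.82e-14), and for both genes the groups did not overlap. Tyms and Mcm6, used in DNA synthesis, were 3.98-fold and 3.27-fold higher (adjusted p = 1.13e-12 and 1.22e-09).

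**Figure D2:**
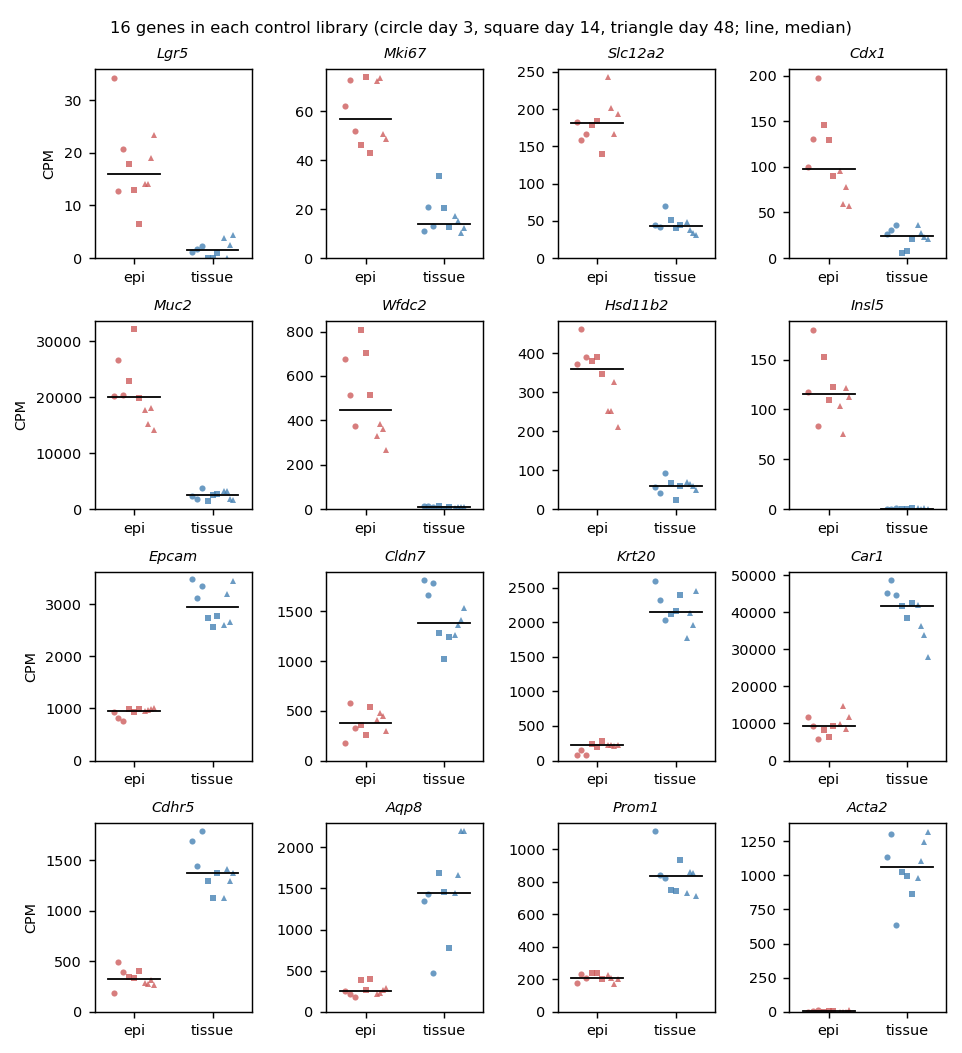
CPM of 16 genes in each control library (vertical axis of each panel; red epithelium, blue tissue; circles day 3, squares day 14, triangles day 48), with a line at each median. In the upper 8 panels, from Lgr5 to Insl5, epithelial libraries lie above tissue, and in the lower 8, from Epcam to Acta2, they lie below.

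Goblet cell genes were the most uniformly high of the epithelial lineages. Of 28 tested, 26 were higher, none lower, and 16 did not overlap between the preparations (median 1.81), against 25.7% and 4.54% of all genes. Summed over the list, epithelium held a median of 45549 CPM and tissue 10247. Muc2, the gel-forming mucin of the mucus layer, held 14229.9 to 32191 CPM in epithelium (median 20059.7) and 1408 to 3805 CPM in tissue (median 2522). Its lowest epithelial library lay well above every tissue library, and Muc2 was 8.20-fold higher (log2 difference 3.04 ± 0.16, adjusted p = 6.05e-20). Zg16 and Clca1, also secreted into mucus, differed less, at 0.84 ± 0.13 and 0.84 ± 0.14, and their groups overlapped. Wfdc2, a secreted protease inhibitor, held 267 to 809 CPM in epithelium (median 448) and 0 to 16.9 CPM in tissue (median 11), an unbroken gap between the preparations. Enteroendocrine genes were called in both directions. Of 20 tested, 5 were higher and 5 lower, near the 25.7% and 30.5% of all genes. Their median of -0.25 changed sign with the scaling. With a block for day and litter 3 were lower, and without tissue replicate 4 of day 48 there were 8. The hormone genes of L cells were the higher ones. Pyy, peptide YY, held 72.7 to 250.5 CPM in epithelium (median 182) and 5.62 to 49.1 CPM in tissue (median 18.9) (log2 difference 3.10 ± 0.19, adjusted p = 1.17e-20), and Gcg, the precursor of glucagon-like peptides, held 77.9 to 246 CPM in epithelium (median 124) and 9.15 to 32.7 CPM in tissue (median 17.8) (log2 difference 2.77 ± 0.20, adjusted p = 4.46e-18). Insl5, an orexigenic peptide of L cells, held 75.3 to 180.1 CPM in epithelium (median 115) and 0 to 1.35 CPM in tissue (median 0), with almost no counts in any tissue library. The lower ones were genes of secretory granules shared by most endocrine cells and by neurons. Chga, chromogranin A, held 10.4 to 47.1 CPM in epithelium (median 32) and 53.6 to 180.3 CPM in tissue (median 89.3) and was 3.16-fold lower (log2 difference -1.66 ± 0.21, adjusted p = 7.9e-09), while Cpe, a hormone-processing enzyme, was 4.43-fold lower (log2 difference -2.15 ± 0.23, adjusted p = 2.91e-12) and Scg2, secretogranin II, 3.56-fold (log2 difference -1.83 ± 0.49, adjusted p = 0.00105). Tuft cell genes were mostly too low to test, 9 of 23 passing. Dclk1, the kinase used to mark tuft cells, held 0 to 33.6 CPM in epithelium (median 18.2) and 20.5 to 40.9 CPM in tissue (median 27.5) with overlapping groups (log2 difference -0.55 ± 0.23, adjusted p = 0.0325). Its call ended under RLE scaling (adjusted p = 0.122) and when any 1 of 7 libraries was left out, namely epithelial replicates 1, 3 and 4 of day 48, tissue replicates 1, 2 and 3 of day 3 and tissue replicate 3 of day 14 (adjusted p = 0.0506 to 0.224). Cd24a, a surface glycoprotein that progenitors share, was 2.94-fold higher (log2 difference 1.55 ± 0.14, adjusted p = 8.76e-16).

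**Figure D3:**
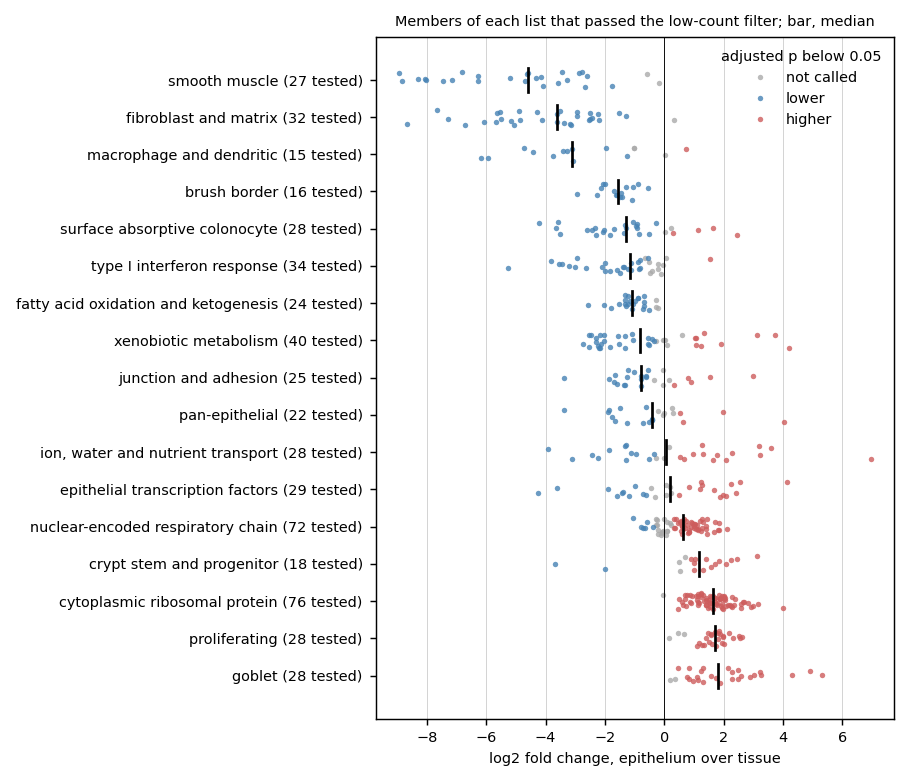
Log2 difference of epithelium over tissue for each tested member of 17 lists (horizontal axis; points red higher, blue lower, grey not called; black bars, list medians), ordered by median. Medians run from -4.58 for smooth muscle to 1.81 for goblet cells.

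Junction genes were lower more often than higher in epithelium, and transport genes were called in both directions. Of 25 junction and adhesion genes, all tested, 16 were lower and 5 higher, against 30.5% and 25.7% of all genes. Among claudins, the strands of the tight junction, Cldn3, Cldn4, Cldn7 and Cldn23 were lower with the endothelial Cldn5, and Cldn2, Cldn8 and Cldn15 higher. Cldn8, a barrier claudin against sodium, held 86.9 to 159 CPM in epithelium (median 119.9) and 5.13 to 41.7 CPM in tissue (median 14.4) and was 7.92-fold higher (log2 difference 2.99 ± 0.29, adjusted p = 8.33e-09). Cldn2, a pore for cations and water, was 2.93-fold higher (log2 difference 1.55 ± 0.18, adjusted p = 2.79e-11), and Cldn4 10.3-fold lower (log2 difference -3.37 ± 0.17, adjusted p = 2.26e-25). The desmosomal genes Dsg2 and Dsc2 were 1.54-fold and 2.54-fold lower (adjusted p = 2.32e-05 and 6.37e-14). Transporters were called in both directions, with 13 higher and 12 lower of 28 tested, against 25.7% and 30.5% of all genes. Their median was 0.07, and 0.23 to 0.29 under the 3 other scalings and the length and GC correction. Slc26a3, the surface chloride-bicarbonate exchanger, held 343 to 636 CPM in epithelium (median 485) and 646 to 2018 CPM in tissue (median 1261) and was 2.47-fold lower (log2 difference -1.30 ± 0.14, adjusted p = 1.34e-11). Slc26a2, a sulfate transporter, was 2.15-fold lower (log2 difference -1.11 ± 0.13, adjusted p = 3.21e-11), and the sodium-proton exchanger Slc9a2 4.66-fold (log2 difference -2.22 ± 0.14, adjusted p = 2.74e-22). On the higher side stood Atp12a, the colonic proton-potassium pump, at 57.4 to 205 CPM in epithelium (median 106) and 0 to 2.13 CPM in tissue (median 0.518) and 124-fold (log2 difference 6.96 ± 0.29, adjusted p = 4.28e-28). The water channel Aqp4, the chloride channel of goblet cells Best2 and the potassium channel Kcnn4 were 12.1-fold, 9.43-fold and 9.23-fold higher (adjusted p = 2.8e-07, 6e-11 and 1.02e-11).

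Several of the widest differences concerned genes of the posterior gut, a group put together after the values were seen. Hox genes are laid out along the body axis, and those of paralogue group 13 are known for the hindgut end. Of 39 Hox genes 10 were tested, 5 higher and 2 lower, against 25.7% and 30.5% of all genes. Hoxb13 held 69.6 to 250.0 CPM in epithelium (median 132) and 0 to 0.784 CPM in tissue (median 0), with 1218 counts in epithelium and 4 in tissue (log2 difference 9.35 ± 0.32, adjusted p = 8.51e-36). Hoxa13 and Hoxd13 were 41.5-fold and 40.4-fold higher (adjusted p = 8.88e-13 and 1.32e-10), and their tissue medians were 0 CPM. Folds against such low tissue levels moved with single libraries, to 1263-fold from 652-fold for Hoxb13 without tissue replicate 4 of day 48, to 82.7-fold for Hoxa13 without tissue replicate 2 of day 3 and to 70.2-fold for Hoxd13 without tissue replicate 1 of day 48. Hoxa9 and Hoxa10 were 4.33-fold and 2.47-fold higher, and Hoxb6 and Hoxd10 were lower, at log2 differences of -1.51 ± 0.42 and -1.61 ± 0.55, the latter with adjusted p = 0.0712 without epithelial replicate 1 of day 48. Other genes with near-empty tissue libraries were Tgm3, a transglutaminase, at 227 to 429 CPM in epithelium (median 352) and 0 to 1.70 CPM in tissue (median 0), and Fxyd4, a sodium pump regulator, at 32.2 to 166 CPM in epithelium (median 77.9) and 0 to 0.523 CPM in tissue (median 0). Sval1, a secretory protein gene with close relatives in the genome, held 452 to 1619.9 CPM in epithelium (median 1064) and 0 to 1.68 CPM in tissue (median 0.213). For each of these 3 genes every epithelial library exceeded every tissue library. The labels do not say which stretch of colon either preparation came from, and its part in these differences was not tested.

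Genes of fat oxidation were lower in epithelium and most genes of the respiratory chain higher. Of 24 tested genes of fatty acid oxidation and ketogenesis, 21 were lower and none higher, against 30.5% and 25.7% of all genes (median -1.08). Slc25a20, the carnitine carrier that brings fatty acids into mitochondria, held 101 to 197 CPM in epithelium (median 137) and 299.7 to 435 CPM in tissue (median 347) and was 2.52-fold lower (log2 difference -1.33 ± 0.13, adjusted p = 3.91e-14). Of 72 nuclear-encoded respiratory chain genes 49 were higher and 6 lower, against 25.7% and 30.5% of all genes (median 0.62). Uqcrh, a small subunit of complex III, was 3.29-fold higher (log2 difference 1.72 ± 0.13, adjusted p = 2.34e-18), while Sdha, the flavoprotein of complex II, was 2.09-fold lower (log2 difference -1.06 ± 0.13, adjusted p = 5.29e-10). Drug and toxin metabolism was mostly lower, with 25 of 40 tested lower and 9 higher, against 30.5% and 25.7% of all genes. Abcb1a, an efflux pump, was 5.81-fold lower (log2 difference -2.54 ± 0.14, adjusted p = 3.19e-24), and Adh1, an alcohol and retinol dehydrogenase, was the most increased by p-value, at 483 to 838 CPM in epithelium (median 624) and 29 to 94.1 CPM in tissue (median 43.6) (log2 difference 3.74 ± 0.16, adjusted p = 5.53e-31). Cholesterol synthesis showed 6 higher and 6 lower of 22, near the 25.7% and 30.5% of all genes, with a median whose sign changed with the scaling.

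Ribosomal protein genes were almost uniformly higher. Of 76 tested 75 were higher and none lower, 50 without overlap (median 1.64), against 25.7% and 4.54% of all genes. Rps14, of the small subunit, held 1506 to 2821 CPM in epithelium (median 2153) and 524 to 757 CPM in tissue (median 655) and was 3.26-fold higher (log2 difference 1.70 ± 0.12, adjusted p = 4.68e-19). Many ribosomal protein genes have processed copies in the genome that can share reads, and processed pseudogenes were higher as a class too, 73 of 109 tested against 9 lower (median 1.46). With a correction for length and GC content, 37 of the 109 pseudogenes were higher and 16 lower (median 0.69). The joint share of ribosomal RNA genes and Lars2, given above, was also higher in epithelium, but not in every class. Mitochondrial ribosomal RNA made up 19.2% to 29.1% of counts in epithelium and 8.39% to 12.7% in tissue. Genes annotated as other ribosomal RNA made up 5.64% to 14.0% in epithelium and 5.33% to 15.1% in tissue, with overlap. The part of these shares in the ribosomal protein result was not tested. Short non-coding RNAs showed the same direction before any correction for length. All 26 tested snoRNA, 20 snRNA, 6 scaRNA and 17 mitochondrial tRNA genes were higher, with medians of 4.67, 5.51, 3.92 and 3.46. These classes, and the genes named from them as the most counted, were chosen after the values were seen. Snord118, a small nucleolar RNA of ribosome assembly, held 2179 to 4247 CPM in epithelium (median 3264) and 95.7 to 248 CPM in tissue (median 175). Rn7sk, which restrains transcription elongation, held 1231 to 3535 CPM in epithelium (median 2223) and 208 to 388 CPM in tissue (median 253), and mt-Tq, the mitochondrial glutamine tRNA, held 2533 to 9511 CPM in epithelium (median 5397) and 234 to 441 CPM in tissue (median 367). In all 3 the preparations lay far apart. Across the 11155 genes with an annotated length, Spearman's rho between length and log2 difference was 0.039, and between GC content and log2 difference -0.1, both across genes, which are not independent replicates. With a correction for length and GC content, added after the data were seen, the ribosomal protein median was 1.64 and the respiratory chain median 0.46. The medians of snoRNA, snRNA and scaRNA genes were then 1.81, 3.19 and 1.80, with 18 of 26, 17 of 20 and 6 of 6 higher and none lower. Mitochondrial tRNA genes turned, with 13 of 17 lower and a median of -1.03, and mt-Tq was at -0.23 (adjusted p = 0.121).

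**Figure D4:**
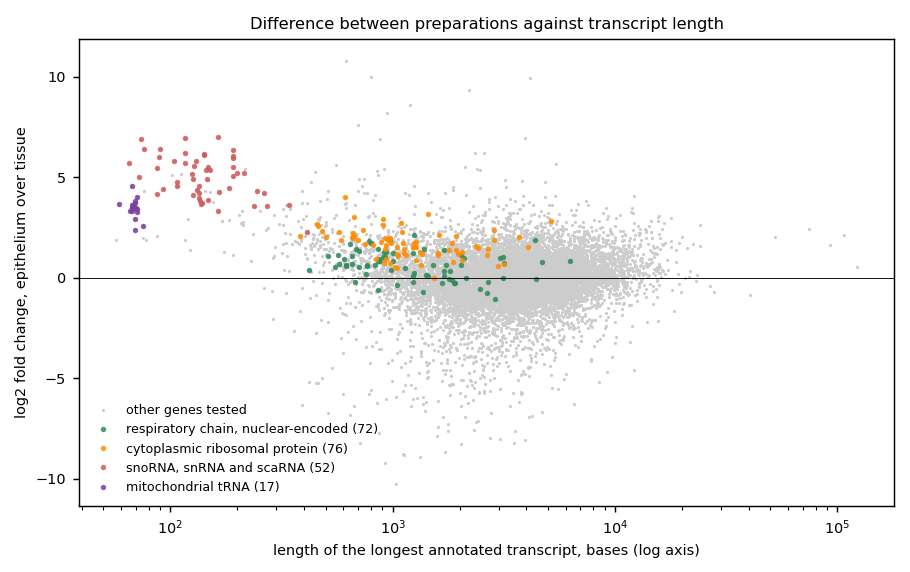
Log2 difference of epithelium over tissue (vertical axis) against the length of the longest annotated transcript in bases (log axis), 1 point per tested gene with a length. The 52 snoRNA, snRNA and scaRNA genes (red) and 17 mitochondrial tRNA genes (purple) lie above 0 at the short end, ribosomal protein genes (orange) and respiratory chain genes (green) lie mostly above 0 within the length range of other genes.

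Ligands that act on the crypt were lower more often than higher in epithelium. Of 21 tested ligands and antagonists of the Wnt, BMP, Hedgehog and growth factor pathways, 11 were lower in epithelium and 2 higher, against 30.5% and 25.7% of all genes. The lower ones numbered 8 to 11 under other scalings, 9 with a block for day and litter and 9 without tissue replicate 4 of day 48. Grem1, a BMP antagonist secreted around the crypt base, was 14.4-fold lower (log2 difference -3.85 ± 0.50, adjusted p = 1.34e-09). Bmp4, a BMP ligand of the stroma, was 8.09-fold lower (log2 difference -3.02 ± 0.62, adjusted p = 3.18e-05), and Igf1 8.96-fold (log2 difference -3.16 ± 0.38, adjusted p = 8.13e-10). Egf and Vegfa were higher, by 2.51 ± 0.49 and 1.25 ± 0.33. The R-spondins and most Wnt ligands did not pass the count filter. Of 33 tested receptors and targets 8 were higher and 10 lower, close to the shares of all genes. Axin2, a Wnt target, was 2.65-fold higher (log2 difference 1.40 ± 0.40, adjusted p = 0.00231), as was Fgfr3, 4.77-fold (log2 difference 2.25 ± 0.38, adjusted p = 6.28e-07), and Pdgfra, the receptor on stromal cells, was 4.62-fold lower (log2 difference -2.21 ± 0.34, adjusted p = 1.06e-07). Transcription factors were called in both directions. Tcf21 and Tbx3, of stromal cells, were 40.3-fold and 8.47-fold lower (adjusted p = 1.07e-13 and 4.01e-15; Tcf21 338-fold without epithelial replicate 4 of day 48). Of 29 epithelial factors 13 were higher and 10 lower, against 25.7% and 30.5% of all genes. Foxa2 and Spdef, of secretory cells, were 17.4-fold and 3.65-fold higher, and Hes1, a Notch target, 4.18-fold. Creb3l3, a regulator of lipid metabolism genes, held 0 to 4.00 CPM in epithelium (median 0.933) and 14.5 to 47.8 CPM in tissue (median 38.2) and was 19.2-fold lower (log2 difference -4.26 ± 0.36, adjusted p = 3.1e-16), while Vdr, the vitamin D receptor, was 2.29-fold lower (log2 difference -1.20 ± 0.13, adjusted p = 1.15e-12).

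Interferon-induced genes were lower in the epithelial preparation. Of 34 tested 24 were lower, against 30.5% of all genes, with a median of -1.17. The lower ones numbered 20 to 24 under the 3 other scalings and the length and GC correction, and 19 to 25 with single libraries left out. Mx1, an antiviral GTPase, was higher (1.54 ± 0.62). The call of Mx1 ended with a block for day and litter (adjusted p = 0.0729) and without any 1 of epithelial replicates 3 of day 3, 2 of day 14 and 2 of day 48 and tissue replicates 1 of day 14 and 2 and 4 of day 48 (adjusted p = 0.055 to 0.103). Irf7, the factor that amplifies the response, held 31 to 86.9 CPM in epithelium (median 54.5) and 327 to 565 CPM in tissue (median 496). Isg15, a ubiquitin-like modifier, held 0 to 3.76 CPM in epithelium (median 0) and 0 to 17.4 CPM in tissue (median 8.29) and was 10.8-fold lower (log2 difference -3.44 ± 0.58, adjusted p = 7.95e-07). Ifit1, which binds viral RNA, held 0 to 21.8 CPM in epithelium (median 10.3) and 32.7 to 114 CPM in tissue (median 68.1) and was 6.23-fold lower (log2 difference -2.64 ± 0.27, adjusted p = 2.54e-10). Ifitm1, a restriction factor of the cell membrane, was 11.8-fold lower (log2 difference -3.56 ± 0.63, adjusted p = 2.09e-06), and Lgals3bp 2.59-fold (log2 difference -1.37 ± 0.14, adjusted p = 3.88e-13). Without epithelial replicate 2 of day 48 Isg15 and Ifitm1 were 17.9-fold and 23.5-fold lower. Antigen presentation by MHC class I went the same way in part, with 9 of 14 tested lower, against 30.5% of all genes, and Psme1 higher. H2-D1, a class I heavy chain, held 247 to 450.5 CPM in epithelium (median 300.1) and 826 to 1239 CPM in tissue (median 1086) (log2 difference -1.75 ± 0.13, adjusted p = 4.43e-19). The promoters of Isg15 and Ifit1, chosen after their values and matches were seen, hold the letter pattern of the interferon-stimulated response element. The pattern is GAAA followed, 2 bases on, by GAAA, searched on both strands of the 250 bases before the start. It was found in 9 of 24 interferon list genes with a window (37.5%), against 936 of 27025 genes (3.46%). Here too a match is not a measured binding site. Shown in RefSeq (GRCm38.p6) are the 200 bases before the start on the strand of each gene, at chr4:156200819-156201018 on the minus strand for Isg15 and chr19:34640689-34640888 on the plus strand for Ifit1. Capitals mark the matches, at -78, -72 and -66 in Isg15, where they overlap, and at -104 and -85 in Ifit1, where they lie on the opposite strand as TTTC, 2 bases and TTTC.
Isg15: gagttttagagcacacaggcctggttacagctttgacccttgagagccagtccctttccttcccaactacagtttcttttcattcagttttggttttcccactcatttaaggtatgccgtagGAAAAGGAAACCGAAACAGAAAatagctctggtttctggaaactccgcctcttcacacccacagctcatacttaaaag
Ifit1: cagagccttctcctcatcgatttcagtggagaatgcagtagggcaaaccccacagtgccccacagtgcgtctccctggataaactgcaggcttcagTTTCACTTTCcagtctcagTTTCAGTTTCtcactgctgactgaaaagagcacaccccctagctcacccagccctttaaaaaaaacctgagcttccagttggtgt

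Innate defence and inflammasome genes were called in both directions. Of 33 tested inflammasome, IL-1 family and pattern recognition genes 9 were higher and 11 lower, close to the 25.7% and 30.5% of all genes. Il18, the cytokine that epithelium holds ready as a precursor, held 51.9 to 258 CPM in epithelium (median 139) and 20.3 to 56.2 CPM in tissue (median 36.2) and was 3.95-fold higher (log2 difference 1.98 ± 0.18, adjusted p = 4.43e-14), with the groups apart. Pycard, the adaptor ASC of inflammasomes, was 2.42-fold higher (log2 difference 1.27 ± 0.12, adjusted p = 6.72e-14). Casp1, the protease that matures IL-18, held 93.5 to 214 CPM in epithelium (median 149) and 126 to 236 CPM in tissue (median 164) and was not called (log2 difference -0.18 ± 0.14, adjusted p = 0.276). Naip1, a sensor of bacterial secretion needles, was 3.77-fold lower (log2 difference -1.92 ± 0.14, adjusted p = 4.6e-19). Nlrp6, an epithelial sensor, held 77 to 175 CPM in epithelium (median 117) and 119 to 222 CPM in tissue (median 163) (log2 difference -0.44 ± 0.13, adjusted p = 0.00403), and its call ended under upper quartile scaling (adjusted p = 0.0966) and without any 1 of epithelial replicates 1 and 3 of day 48, tissue replicates 1, 2 and 3 of day 3 and tissue replicate 3 of day 14 (adjusted p = 0.0664 to 0.188). Among 19 tested defence genes 8 were higher and 6 lower, against 25.7% and 30.5% of all genes. Ang4 and Retnlb, antibacterial proteins of goblet cells, held 153 to 1580.2 CPM in epithelium (median 432) and 0 to 56.5 CPM in tissue (median 9.67) and 160.1 to 1044 CPM in epithelium (median 365) and 11.2 to 30.7 CPM in tissue (median 22.4), respectively, each without overlap. Duoxa2, the maturation factor of an oxidase, was 12.7-fold lower (log2 difference -3.67 ± 0.49, adjusted p = 3.12e-06; 21.6-fold without epithelial replicate 3 of day 14). Of 27 tested immediate early and heat shock genes, which respond to handling and stress, 9 were higher and 8 lower. These counts were near the 25.7% and 30.5% of all genes. Fos and Egr1 were 3.02-fold and 5.90-fold higher (adjusted p = 1.01e-10 and 9.12e-07), whereas Junb and Klf6 were 3.16-fold and 3.42-fold lower (adjusted p = 5.81e-15 and 2.68e-18).

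The difference between the preparations varied by day for 108 genes (0.966% of those tested), by a test of the interaction with 2 degrees of freedom. Single libraries moved this count, to 36 to 67 without any 1 of epithelial replicates 1 of day 14 and 1 and 4 of day 48 and tissue replicates 1 and 3 of day 3 and 2, 3 and 4 of day 48, and to 233 and 296 without epithelial replicates 1 and 2 of day 3. The direction differed between days for 33 of them, and 88 were also called for the mean over days. Slc6a14, an importer of amino acids, held 610.6 to 1153 CPM in tissue at day 48 and 1444 to 1829 at day 3, and its log2 differences were -1.92, -1.78 and -0.58 at days 3, 14 and 48 (interaction adjusted p = 0.0035, up to 0.147 over other settings). Rpl32, a ribosomal protein gene, was higher in epithelium on every day, by 2.29, 3.82 and 2.78 (interaction adjusted p = 0.00721, a call that ended under 4 of 12 other settings, up to 0.384). Ttr, the thyroxine carrier transthyretin, held 51.8 to 130.3 CPM in epithelium and 0 to 10.5 in tissue, with differences of 5.41, 7.06 and 3.15 (interaction adjusted p = 0.00587, and 0.0596 with limma voom). Cldn8 was higher on every day as well, by 3.91, 1.52 and 3.28 (interaction adjusted p = 0.00752, and 0.141 without tissue replicate 3 of day 14). Clock genes were among those that varied by day, a family looked at after the values were seen. The interaction was called for 4 of 16, namely Nr1d1, Tef, Arntl and Cry1. Nr1d1, a repressor within the circadian clock, held 150.6 to 185.6 CPM in tissue at day 3 and 12 to 25.3 at day 14, while epithelium held 0 to 26.0 CPM over all 3 days (interaction adjusted p = 0.00587, and 0.0863 with limma voom). Its log2 differences were -4.04, -0.51 and -1.57. Tef, an activator driven by the clock, was at 0 CPM in the 3 epithelial libraries of day 3 and at 44.5 to 55.2 in tissue, and overlapped between the preparations at days 14 and 48 (interaction adjusted p = 0.000689). Arntl, the clock activator BMAL1, and Cry1, a clock repressor, had interaction adjusted p-values of 0.019 and 0.0462. The call of Cry1 ended when any 1 of 16 of the 20 libraries was left out (adjusted p up to 0.342), and that of Arntl without epithelial replicate 2 or tissue replicate 1 or 3 of day 3 (adjusted p up to 0.127). The hour at which the mice were sampled is not given in the labels, and its part was not tested. Tppp3, a tubulin-binding protein, changed order, with epithelium at 102.2 to 176.3 CPM against 57.3 to 84.3 in tissue at day 14 and at 29.3 to 58.1 against 89.1 to 161.8 at day 48 (interaction adjusted p = 6.46e-05).

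**Figure D5:**
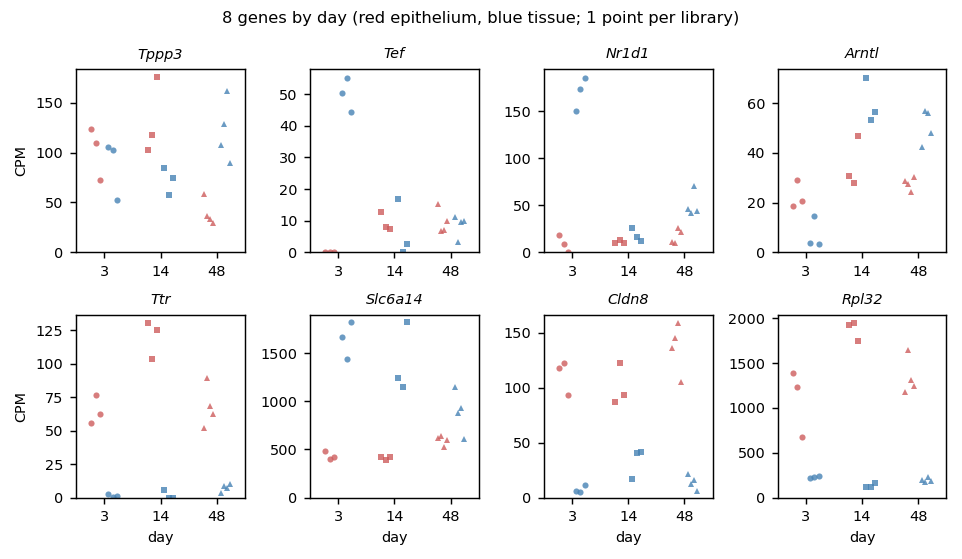
CPM of 8 genes (vertical axis of each panel) in each control library by day (horizontal axis; red epithelium, blue tissue). Tef and Nr1d1 are high in the 3 tissue libraries of day 3, at 44.5 to 55.2 and 150.6 to 185.6 CPM, and Tppp3 changes order between days 14 and 48.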

How the data were processed

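The authors deposited 1 table of whole-number read counts per gene for all 40 libraries, per the labels' protocols made by digital gene expression of the 3′ ends of transcripts. Alignment by STAR and counting by Subread are listed per the submitters' processing notes. Which build and annotation were used, whether strand counted, and whether molecular identifiers collapsed duplicates is not given in the sources used here. Symbols for 45143 of 45792 mouse identifiers (98.6%) came from GENCODE M21, and 1 non-mouse row (0.0104% of the control counts) did not enter the library sizes or the tests. The 20 control libraries were fitted in R 4.3.3 with edgeR 4.0.16 (quasi-likelihood test, robust, TMM scaling, filterByExpr with a minimum count of 10 and a minimum total of 15, day as a factor), p-values were adjusted by Benjamini and Hochberg over 11177 genes, and the interaction was tested in a model of 6 groups. Single library values were compared by exact permutation within days. Alternatives used DESeq2 1.42.0, limma 3.58.1 (voom), other scalings and filters, length and GC content, a block for day and litter, and each library left out. Litter labels pair the preparations, although deviations of paired libraries from their group means correlated at only -0.0173 to 0.0827 over 5193 genes. Libraries of 1 group differed beyond counting noise (chi-square per degree of freedom 2.75 to 22.2), so none was treated as a duplicate. Of counts from 1 to 20, 61.6% to 85.8% per library were even, and halved counts were among the alternatives. Whether fragments were counted more than once was not tested, and the chi-square values and counting intervals take each count as 1 fragment. In simulated data of 11177 genes, 65 of 100 genes changed by 1 on the log2 scale and 96 of 100 changed by 2 were recovered, with 5 false calls. No other genes were changed there, and as many went up as down. In the real libraries 56.2% of genes were called, so these rates do not carry over to them. Members, gene lists and tests were chosen with earlier results of these data known. Named genes followed a rule: in each list the 4 called members with the highest mean CPM and up to 3 called against the majority, and over all genes the top 10 in each direction by adjusted p without overlap, the 10 most counted and the 10 with the clearest interaction, with 22 genes always named, 240 in all, of which the text gives a part. Genes outside it, the Hox, claudin, collagen, mucin and clock families, the short RNA classes and the promoters were chosen after values were seen. Levels at 3 counts or fewer over a group make a fitted fold depend on the prior count; with such genes set to bounds the median of 1 list moved, skeletal muscle from -4.26 to -3.10. Promoter sequences came from RefSeq tables on GRCm38.p6. The count of table columns left unused was 0. Some genes of the lists are not reported here.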

Additional observations from a re-analysis of the deposited data

Results flagged for a closer look

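At day 48, the only day with 4 libraries of each preparation, 452 values in all were examined for a library whose gap to the nearest other exceeded Dixon's 95% critical value, and 37 did. Chance passes about 1 in 20 groups. That rate does not hold where the other 3 libraries are all at 0, since any count in the remaining library then passes. The values are CPM, with the range of the other 3 libraries of the group in brackets. Epithelial replicate 1 was highest for Penk at 2.80 (0 in the others). Epithelial replicate 2 was highest for the enteroendocrine list at 952 (699 to 736 in the others), cholesterol synthesis list at 1511 (1247 to 1287 in the others), inflammasome, IL-1 family and pattern recognition list at 2981 (2427 to 2502 in the others) and Ssr4 at 859 (596 to 619.8 in the others). It was also so for Gzma at 2.82 (0 in the others) and Cd74 at 7.53 (0 to 1.27 in the others). Epithelial replicate 3 was highest for Tgm3 at 429 (227 to 247 in the others). Epithelial replicate 3 was lowest for Krt20 at 209 (226 to 228 in the others). Epithelial replicate 4 was highest for Acta2 at 9.75 (0 to 1.27 in the others), Tcf21 at 3.90 (0 in the others), Pdpn at 3.90 (0 in the others) and Col22a1 at 26.3 (5.08 to 8.40 in the others). It was also so for Bmp4 at 1.95 (0 in the others) and mt-Cytb at 11242 (8478 to 8772 in the others). Epithelial replicate 4 was lowest for the epithelial defence list at 32662 (36389 to 36952 in the others), Rn7sk at 1231 (2114 to 2257 in the others) and Abcb1a at 195 (268 to 269.6 in the others). Tissue replicate 1 was highest for Tgm3 at 1.70 (0 to 0.273 in the others) and Scg2 at 7.66 (6.01 to 6.27 in the others). Tissue replicate 1 was lowest for Creb3l3 at 14.5 (41.5 to 46 in the others) and Kcnn4 at 0.851 (2.80 to 3.14 in the others). Tissue replicate 2 was highest for the non-mouse entry at 969 (5.11 to 27.5 in the others), Ly6g at 1.12 (0 in the others), Ceacam1 at 5949.6 (4709 to 4899.8 in the others) and Hoxa13 at 1.12 (0 in the others). Tissue replicate 3 was highest for the red blood cell list at 14.9 (9.37 to 9.67 in the others) and Nr1d1 at 70.1 (41.7 to 45.6 in the others). Tissue replicate 3 was lowest for Pyy at 12 (18.3 to 19.1 in the others). Tissue replicate 4 was highest for the MHC class II list at 1329 (103 to 192 in the others), skeletal muscle list at 83.4 (24.7 to 31.1 in the others), Ang4 at 56.5 (8.60 to 15.4 in the others) and H2-Ab1 at 475 (34.1 to 65.3 in the others). It was also so for Cldn15 at 94.9 (53 to 57.5 in the others) and Cd74 at 393 (29 to 53 in the others). Tissue replicate 4 was lowest for Ifitm1 at 3.14 (6.81 to 7.28 in the others) and Clock at 48.9 (54.5 to 55.2 in the others).

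For each of the following genes the difference between the preparations varied by day, by the interaction in edgeR's quasi-likelihood test adjusted over all genes, and the log2 differences of epithelium over tissue are given for days 3, 14 and 48. Tppp3 was at 0.28, 0.85 and -1.62 (adjusted p = 6.46e-05). Slc6a14 was at -1.92, -1.78 and -0.58 (adjusted p = 0.0035). Ttr was at 5.41, 7.06 and 3.15 (adjusted p = 0.00587). Nr1d1 was at -4.04, -0.51 and -1.57 (adjusted p = 0.00587). Rpl32 was at 2.29, 3.82 and 2.78 (adjusted p = 0.00721). Cldn8 was at 3.91, 1.52 and 3.28 (adjusted p = 0.00752). Krt20 was at -4.42, -3.21 and -3.22 (adjusted p = 0.019). Abcb1a was at -3.35, -2.35 and -2.14 (adjusted p = 0.019). Arntl was at 1.74, -0.75 and -0.89 (adjusted p = 0.019). Igha was at -4.53, -6.78 and -3.75 (adjusted p = 0.0244). Vil1 was at -1.97, -0.78 and -1.68 (adjusted p = 0.0303). Aqp4 was at 2.62, 2.74 and 4.88 (adjusted p = 0.0414). Cry1 was at 0.72, -1.86 and -1.55 (adjusted p = 0.0462). Tef, whose epithelial libraries were all at 0 on day 3, had an adjusted p of 0.000689. The interaction stayed called whichever library was left out for Nr1d1, Rpl32, Slc6a14, Tef, Tppp3 and Ttr. It ended without 1 or more single libraries for Abcb1a (2 of 20), Aqp4 (15 of 20), Arntl (3 of 20), Cldn8 (1 of 20), Cry1 (16 of 20), Igha (5 of 20), Krt20 (1 of 20) and Vil1 (7 of 20). Of 12 other settings, none ended the interaction of Tef or Tppp3. The number that ended it, with the highest adjusted p, is given in brackets for Abcb1a (4, up to 0.504), Aqp4 (4, up to 0.236), Arntl (1, up to 0.0639), Cldn8 (1, up to 0.0691), Cry1 (5, up to 0.756), Igha (2, up to 0.19), Krt20 (4, up to 0.326), Nr1d1 (1, up to 0.0863), Rpl32 (4, up to 0.384), Slc6a14 (2, up to 0.147), Ttr (1, up to 0.0596) and Vil1 (6, up to 0.89). The 1 non-mouse entry of the count table lies outside the mouse genes. It held a median of 1792 CPM in the 20 libraries of mice given T.mu (range 45.2 to 42755). The medians were 24.1 in control tissue (range 5.11 to 969) and 41.4 in control epithelium (range 21.8 to 71.5), so the ranges overlapped. Besides tissue replicate 2 of day 48, tissue replicate 1 of day 14 held 512 CPM.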

How the results depend on the processing

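No called gene was called in the opposite direction under any alternative but the length and GC correction, with or without the block, where 23 of 6263 were, 13 of them mitochondrial tRNA genes. The number of higher and lower genes moved with the scaling, from 2871 and 3405 to 3439 and 2873 with RLE, 3602 and 2740 with upper quartile scaling, 3626 and 2610 without ribosomal RNA genes and Lars2, and 3715 and 3060 with DESeq2, the last at 54.8% higher. It was 4969 and 3870 with no filter on low counts, 1704 and 1662 with a minimum count of 50, where fewer genes were tested, and 2981 and 3476 with limma voom. With the counts halved it was 2811 and 2467, with all 40 libraries in 1 fit 2734 and 3515, without day 14, when part of the index label differed between the preparations, 2848 and 3504, with day left out 2939 and 3381, and without libraries under 400000 counts 3349 and 3855. The length and GC correction, chosen after seeing the data, gave 3357 and 2786. With a replicate block of day and litter the counts were 2487 and 3171, and 107 genes varied by day. With the block and the length and GC correction together they were 2894 and 2595, and 70. Beside Mx1 and Vwf the replicate block ended no call of a gene named in the text. With single libraries left out the number of higher genes ran from 2579 to 3567 and of lower genes from 2560 to 3756. Without any 1 of epithelial replicates 1 and 3 of day 48, tissue replicates 1, 2 and 3 of day 3 and tissue replicate 3 of day 14, 56.3% to 56.6% of the called genes were higher, and the median over all genes was 0.15 to 0.17, as with the other scalings. The number of genes that varied by day was 108, and 386 with DESeq2, 25 with limma voom, 277 with no filter, 53 with the length and GC correction and 36 to 296 with single libraries left out; the cause was not tested. The difference in genes found at equal depth was 690 genes at 170291 counts, 276 at 100000 counts (exact permutation p = 0.109) and 1321 without ribosomal RNA genes. Of 167 called genes named in the text, 161 kept direction and call whichever library was left out and 156 under every other alternative. Each gene was judged only under the alternatives in which it was tested. With a minimum count of 50, 123 of 173 named genes were unchanged, 1 was weaker and 1 reversed, and the others were not tested. With the counts halved, 149 were unchanged, 2 were weaker and 1 reversed, and the others were not tested. Counting those given beside the results, alternatives other than a library left out ended the calls of Cd14 under 4 (0.0506 to 0.24), Cry1 under 1 (0.14), Dclk1 under 7 (0.0571 to 0.228), Muc5b under 1 (0.0691), Mx1 under 4 (0.0728 to 0.129), Nlrp6 under 6 (0.0966 to 0.598), Rbp4 under 3 (0.0526 to 0.338), Sdc1 under 2 (0.173 to 0.283), Vwf under 4 (0.0874 to 0.198), mt-Cytb under 1 (0.0789) and mt-Tq under 1 (0.121) (adjusted p in brackets). Genes near 0 changed sign. Casp1 was at 0.0195 with upper quartile scaling, 0.0357 without ribosomal RNA genes, 0.153 with a minimum count of 50, 0.0567 with counts halved and -0.278 to 0.0549 with single libraries left out. Ptprc was at -0.0783 with no filter, -0.0764 with all 40 libraries, -0.0868 without libraries under 400000 counts, -0.00691 with the replicate block and the length and GC correction and -0.122 to 0.327 with single libraries left out. Arntl was at 0.0254 with all 40 libraries, and Tppp3 at -0.528 to 0.00662 with single libraries left out. mt-Tq was at -0.23 with the length and GC correction and -0.25 with the block as well. Few members of some lists passed the count filter, among them 1 of 22 T cell, 1 of 15 B cell and 2 of 16 neutrophil genes; the part of depth in this was not tested.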

Other observations

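Several lists measured in the same fit add to the description of the preparations, and the genes named here were chosen after their values were seen. Besides Muc2, the mucins Muc4 (1.29 ± 0.15, adjusted p = 6.02e-11), a membrane mucin, and Muc5b (1.49 ± 0.50, adjusted p = 0.00881), a gel-forming one, were higher. Muc13, a membrane mucin of the brush border, held 399.8 to 728 CPM in epithelium (median 580.2) and 1222 to 1799.6 CPM in tissue (median 1478) (log2 difference -1.36 ± 0.12, adjusted p = 1.18e-15). Of the squamous list only Krt10 and Sprr1a were tested. Sprr1a, a cornified envelope protein, held 0 to 25.2 CPM in epithelium (median 14.3) and 98.9 to 208 CPM in tissue (median 159) and was 10.8-fold lower (log2 difference -3.43 ± 0.20, adjusted p = 8.93e-24). Erbb3, a receptor used as a glial marker and also made by epithelium, was 3.17-fold lower (log2 difference -1.66 ± 0.14, adjusted p = 1.76e-16). Kit and Ano1, listed for the interstitial cells of Cajal that pace the muscle, were higher in epithelium although the muscle list was lower. Kit held 31.2 to 96.4 CPM in epithelium (median 65.5) and 14.3 to 34.8 CPM in tissue (median 21.2) (log2 difference 1.64 ± 0.19, adjusted p = 1.48e-11), and Ano1, a chloride channel, held 56.6 to 94.5 CPM in epithelium (median 69.6) and 5.62 to 24.5 CPM in tissue (median 15.8) (log2 difference 2.13 ± 0.18, adjusted p = 5.86e-16). Secretory pathway and ER stress genes were called in both directions, 7 higher and 6 lower of 25 tested, close to the 25.7% and 30.5% of all genes. Ssr4, of the translocon at the endoplasmic reticulum, held 504 to 1025 CPM in epithelium (median 796) and 124 to 209 CPM in tissue (median 181) (log2 difference 2.12 ± 0.14, adjusted p = 1.1e-21), while Dnajb9 and Ddit3, both induced by ER stress, were lower (-1.37 ± 0.16 and -1.62 ± 0.30). Transcripts of the mitochondrial genome were unequal, 2.18 ± 0.13 for mt-Nd2 and 0.43 ± 0.13 for mt-Cytb, the latter at adjusted p = 0.00269. Of 19 tested transcription factors of mesenchyme and nerve 11 were lower and 1 higher (none with a block for day and litter), and Zeb2, a repressor of epithelial genes, held 0 to 7.80 CPM in epithelium (median 4.01) and 8.18 to 28.3 CPM in tissue (median 22.1) (log2 difference -2.39 ± 0.35, adjusted p = 2.24e-08).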
